A study of Mus musculus with 16 samples.

Results

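The comparison described here is that of stimulated monocytes of NFAM1-/- mice with those of NFAM1+/+ mice, taken over 6 h and 24 h of culture. It holds 8 of the 16 libraries of the series, chosen by their labels alone: every library stimulated with IFN-γ plus CD40L whose title gives the genotype as KO (4 libraries) or WT (4 libraries). There were 2 libraries of each genotype at each time, numbered 26 and 10 (NFAM1+/+, 6 h), 11 and 12 (NFAM1-/-, 6 h), 56 and 57 (NFAM1+/+, 24 h) and 55 and 58 (NFAM1-/-, 24 h). All mice carry the strain label C57BL/6, and the deletion of exons 2 and 3 was made with Cas9 and a pair of guide RNAs in C57BL/6NTac zygotes and is constitutive, so that it is present in every cell of the animal. Ages are not given in the sources used here. The cells were pretreated with IFN-γ for 1 h (100 µg/mL in the labels and in the study's methods for stimulation, whereas its methods for sequencing state a far smaller dose in nanograms) and then received 1 µg/mL MegaCD40L, a multimeric form of the ligand. The labels call the cells PBL monocytes, whereas the methods describe enrichment from bone marrow by depletion of other cells. The sources used here do not say which library came from which mouse, so p-values measure only the spread between these libraries, which may be technical in part.

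NFAM1 is a membrane receptor of the immunoglobulin superfamily whose tail carries an ITAM, the tyrosine motif through which Fc receptors and antigen receptors recruit the kinase SYK. ITAM signalling can raise calcium and activate the calcineurin-dependent NFAT transcription factors, which often act together with AP-1 at cytokine and chemokine genes. CD40 on monocytes signals through TRAF adaptors to NF-κB and the MAP kinases, and IFN-γ signals through JAK kinases to genes of antigen presentation and CXCR3 chemokines.

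The titles and the genotype tags of the labels do not agree. Among the 8 libraries, 2 of the 24 h set are in conflict: library 56 is titled WT and tagged KO, and library 58 is titled KO and tagged WT. The reads of Nfam1 include those from exons that the deletion leaves in place, so its level does not check the deletion. At 6 h Nfam1 stood at 133 and 129 CPM (read counts relative to the authors' scaled library size) in the libraries titled NFAM1+/+ and at 135 and 127 CPM in those titled NFAM1-/-, and the genotypes overlapped. At 24 h it stood at 271 and 252 CPM in libraries 56 and 57 and at 201 and 223 CPM in libraries 55 and 58, so the titles separated the libraries and the tags did not. Nr4a1, which encodes an immediate early orphan nuclear receptor, was at 21.6 and 16.5 CPM in libraries 56 and 57 against 11.9 and 7.0 CPM in libraries 55 and 58. Ccl4, a chemokine gene, was at 24.6 and 27.9 CPM against 17.3 and 18.9 CPM in the same order. For all 3 genes the 2 libraries titled NFAM1+/+ were above the 2 titled NFAM1-/-, and for all 3 genes the tags gave groups that overlapped. Separation by title at 24 h was common: 2837 of the 11927 genes tested were lower in NFAM1-/- without overlap (23.8%) and 3021 were higher (25.3%). With 4 libraries the exact permutation test (two-sided) cannot go below p = 0.333, which is what each of the 3 genes gave by title at 24 h. By tag at 24 h the exact p was 1 for Nfam1, 0.667 for Nr4a1 and 0.667 for Ccl4. Over both times, with libraries permuted within each time, the smallest possible exact p of 0.0556 was reached by Nr4a1 and by Ccl4 by title, and Nfam1 gave 0.167. By tag over both times the exact p was 0.778 for Nr4a1, 0.111 for Ccl4 and 0.889 for Nfam1. Genotype is taken from the titles below because the comparison was set by title, and the counts by tag are given beside the main results. These 3 genes do not settle which label is right: Nr4a1 and Ccl4 are genes of the comparison itself, and the 24 h p-values are the smallest the design allows.

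**Figure D1:**
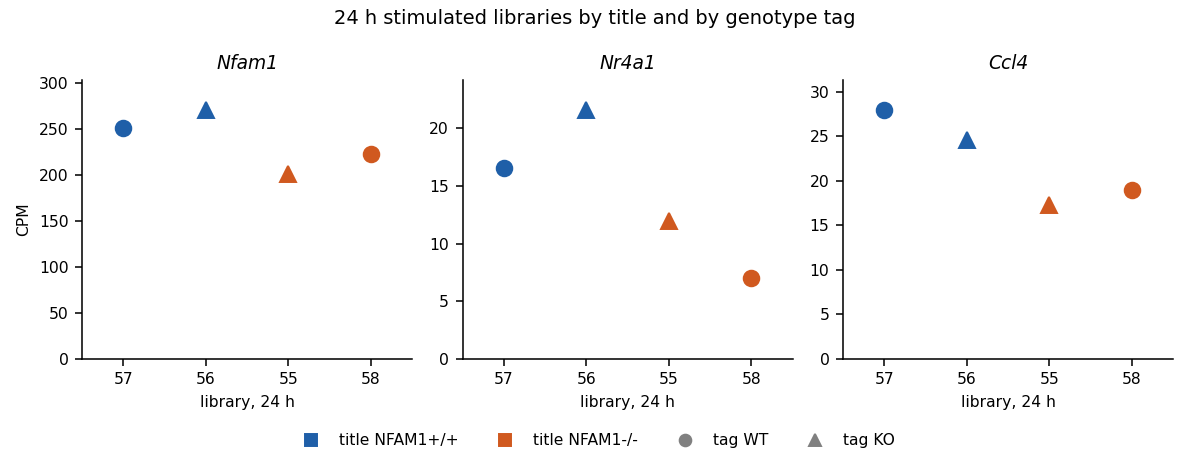
CPM of Nfam1, Nr4a1 and Ccl4 in each of the 4 stimulated libraries of 24 h (x axis, library number). Colour gives the genotype in the title and shape the genotype in the tag; in each panel both blue points lie above both orange points, while circles and triangles overlap.

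Between 64285583 and 78714274 reads fell on listed genes in the 8 libraries. Monocyte genes were abundant in all 8: the 10 monocyte markers summed to between 8142 and 11444 CPM. T cell markers were near 0, with 3 of 11 listed and sums of 3.03 to 4.82 CPM. Neutrophil markers, with 11 of 12 listed, summed to 335 to 535 CPM, and the genotypes overlapped at each time. Markers of basophils and mast cells summed to 194 to 249 CPM at 6 h and 53.6 to 73.5 CPM at 24 h. Those of stroma and endothelium summed to 58.0 to 112 CPM at 6 h and 310 to 378 CPM at 24 h. Of the B cell markers 6 of 12 were listed (Ms4a1 and Pax5 were not), with sums of 379 to 552 CPM at 6 h and 41.2 to 51.6 CPM at 24 h, and of the plasma cell markers 6 of 9, with sums of 295 to 535 CPM at 6 h and 184 to 208 CPM at 24 h. Both sums were highest at 6 h in library 12, and neither separated the genotypes at both times. At 6 h, 433 and 375 of 11927 genes differed by 2-fold or more between the libraries of one genotype, and 371 to 605 between libraries of different genotypes. At 24 h these numbers were 395 and 270 within a genotype and 292 to 815 between genotypes, so the ranges overlapped and the largest distances lay between genotypes. Libraries 26 and 58 were the farthest from the others of their time, and the counts of gene lists are also given without both (a choice made after seeing the data).

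Over both times, with time as a block, 3 of the 11927 genes tested differed between the genotypes at an adjusted p below 0.05 (limma, Benjamini-Hochberg over all genes), and all 3 were lower in NFAM1-/- monocytes. They were Mir155hg, the host transcript of miR-155, and Ccl3 and Ccl4, which encode the chemokines MIP-1α and MIP-1β that recruit leukocytes through shared receptors. This is 0.0252% of the genes tested for the lower direction and 0% for the higher one. None passed the study's threshold, which adds a minimum fold change of 2.

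Mir155hg stood at 69.1 and 57.6 CPM in the NFAM1+/+ libraries and at 38.1 and 36.4 CPM in the NFAM1-/- libraries at 6 h. At 24 h it stood at 37.2 and 38.5 CPM in NFAM1+/+ and at 23.3 and 18.9 CPM in NFAM1-/-. Both NFAM1-/- libraries were below both NFAM1+/+ libraries at each time, and Mir155hg fell by 0.80 (SE 0.0868) on the log2 scale over both times (limma, adjusted p = 0.0283, n = 4 per genotype), a ratio of 0.573. The gene is known as a target of NF-κB and AP-1 in activated myeloid cells, and miR-155 sustains inflammatory responses by restraining inhibitors such as SHIP1 and SOCS1. The mature miRNAs were not measured by these polyA libraries. Their sequences are shown because the seed, bases 2 to 8 in capitals, is what selects their targets. Both lie on the plus strand (RefSeq, GRCm38.p6), mmu-miR-155-5p at chr16:84714143-84714165 and mmu-miR-155-3p at chr16:84714182-84714202.
mmu-miR-155-5p: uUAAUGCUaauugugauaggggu
mmu-miR-155-3p: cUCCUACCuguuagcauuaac

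Ccl3 stood at 94.5 and 96.9 CPM in NFAM1+/+ against 64.4 and 66.1 CPM in NFAM1-/- at 6 h. At 24 h it stood at 22.5 and 24.4 CPM against 16.1 and 16.7 CPM. The 2 libraries of each group lay close together and the genotypes did not overlap at either time, although the level at 24 h was far below that at 6 h in both genotypes. Ccl3 fell by 0.53 (SE 0.0601) on the log2 scale over both times (adjusted p = 0.0283), a ratio of 0.691. Ccl4 stood at 219 and 195 CPM in NFAM1+/+ against 141 and 131 CPM in NFAM1-/- at 6 h. With the 24 h values given above, it fell by 0.57 (SE 0.0713) on the log2 scale (adjusted p = 0.0467), a ratio of 0.674. Taken separately, Ccl3 gave -0.55 at 6 h and -0.51 at 24 h, a difference between the times of 0.04 (SE 0.122), and Ccl4 gave -0.61 and -0.53 (0.07, SE 0.143).

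The sequences upstream of Mir155hg and Ccl3 are shown because these are 2 of the 3 genes that passed and RefSeq gives a start site for each. Each is the 250 bases before the start, read 5′ to 3′ on the strand of the gene: chr16:84712773-84713022, plus strand, for Mir155hg and chr11:83649379-83649628, minus strand, for Ccl3 (GRCm38.p6, whereas the submitters' processing notes name GRCm39). Capitals mark the letters GGAAA, the core that NFAT proteins bind, on either strand (TTTCC on the strand shown).
Mir155hg: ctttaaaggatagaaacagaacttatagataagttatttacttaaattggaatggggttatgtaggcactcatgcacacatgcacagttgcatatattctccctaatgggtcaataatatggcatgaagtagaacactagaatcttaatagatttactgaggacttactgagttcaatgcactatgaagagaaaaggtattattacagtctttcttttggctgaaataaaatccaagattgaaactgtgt
Ccl3: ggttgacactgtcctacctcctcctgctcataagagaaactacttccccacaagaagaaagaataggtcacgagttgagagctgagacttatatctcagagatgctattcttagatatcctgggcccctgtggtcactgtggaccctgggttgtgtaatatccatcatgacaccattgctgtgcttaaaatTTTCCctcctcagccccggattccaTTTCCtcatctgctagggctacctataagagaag
The letters GGAAA were found 2 times in the Ccl3 window, beginning 59 and 34 bases before the start, and 0 times in the Mir155hg window. They are present in 55.7% of the 32536 promoter windows of this length, so a match is common. The AP-1 letters TGANTCA, present in 6.73% of windows, and the κB consensus, present in 3.92%, were found 0 times in either window. These counts describe letters in a window and not binding.

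The limits of these calls lie in the small groups and the labels. When genotype was taken from the tag, 0 genes passed (limma; smallest adjusted p 0.669), 874 genes had an unadjusted p below 0.05 in place of 1520, and Mir155hg gave -0.32, Ccl3 -0.32 and Ccl4 -0.38. None of the 3 passed without library 26, 11, 12, 56, 57 or 58, where adjusted p ranged from 0.0573 to 0.232; all 3 passed without library 10, and Mir155hg alone without library 55 (0.0471) and without libraries 26 and 58 together (0.0478). Across these and the other alternatives run, the log2 difference of each of the 3 over both times stayed below 0. When the 8 unstimulated libraries of the series were added to the fit to estimate the spread, 249 genes passed with no minimum fold (129 lower and 120 higher) and 19 at 2-fold.

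**Figure D2:**
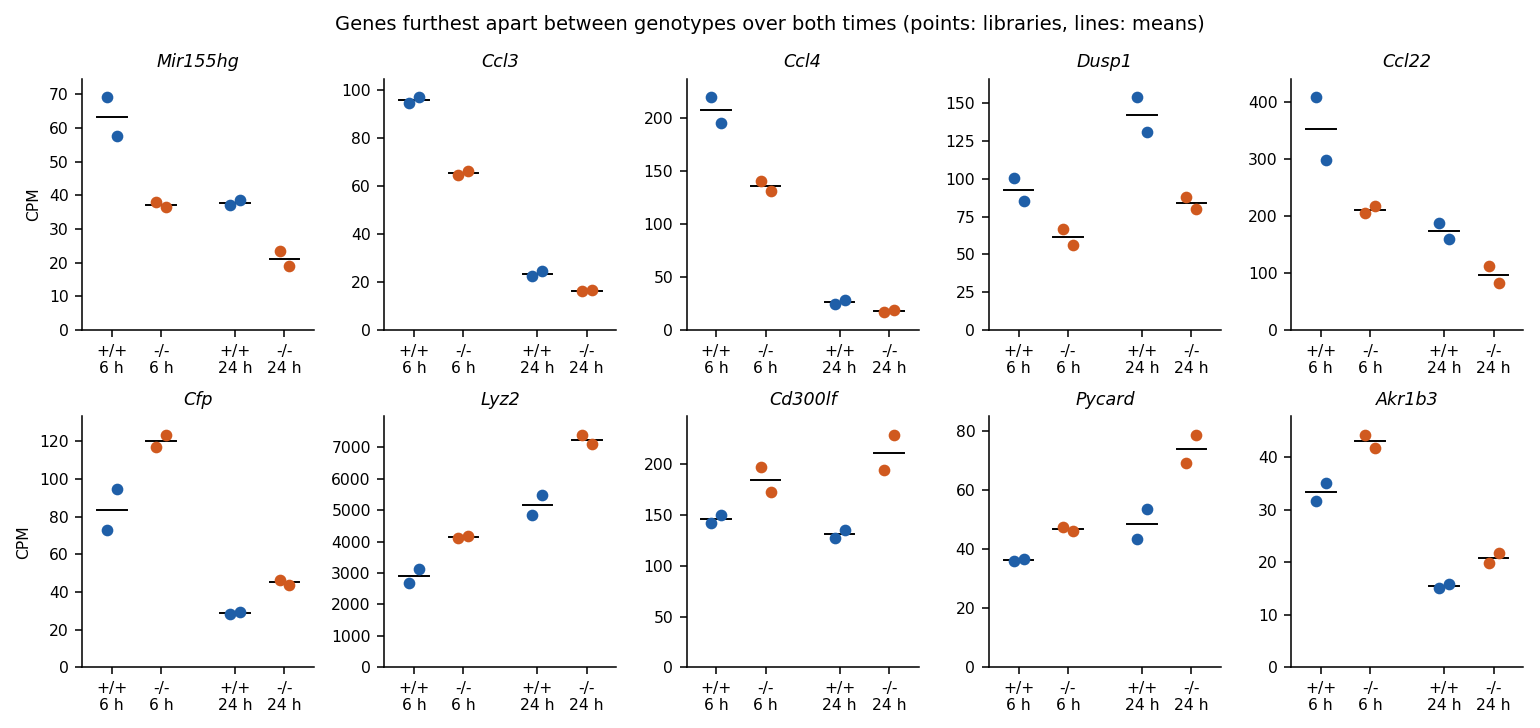
CPM (y axis, from 0) of 5 genes lower and 5 higher in NFAM1-/- monocytes, in each genotype and time (x axis). They were picked by the rule for named genes, which here admits only genes whose genotypes do not overlap at either time. Points are libraries (NFAM1-/- in orange, NFAM1+/+ in blue) and lines are means of 2.

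Below the threshold, 705 genes were lower in NFAM1-/- monocytes at an unadjusted p below 0.05 over both times (5.91% of the genes tested) and 815 were higher (6.83%); without libraries 26 and 58 these were 538 and 600, and by tag 417 and 457. The genotypes did not overlap at either time, in the same direction, in 668 genes that were lower (5.60%) and 851 that were higher (7.14%). Dusp1, which encodes a MAP kinase phosphatase, narrowly missed at an adjusted p of 0.0511: it stood at 100 and 85.1 CPM in NFAM1+/+ against 66.6 and 56.5 CPM in NFAM1-/- at 6 h, and at 154 and 131 CPM against 88.0 and 79.8 CPM at 24 h. Ccl22, a chemokine of activated macrophages and dendritic cells that acts on CCR4, stood at 409 and 299 CPM against 205 and 218 CPM at 6 h and at 188 and 159 CPM against 112 and 83.0 CPM at 24 h (log2 -0.79, SE 0.118, adjusted p = 0.108).

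The genes named as higher in NFAM1-/- monocytes over both times did not pass the test. They were picked by smallest unadjusted p among genes whose libraries did not overlap at either time. Cfp, which encodes properdin, the positive regulator of the alternative complement pathway, stood at 72.7 and 94.6 CPM in NFAM1+/+ against 117 and 123 CPM in NFAM1-/- at 6 h and at 28.2 and 29.5 CPM against 46.6 and 43.5 CPM at 24 h. Its log2 difference was 0.59 (SE 0.0837, adjusted p = 0.0868). Lyz2, the lysozyme gene of monocytes and macrophages, stood at 2667 and 3135 CPM against 4112 and 4159 CPM at 6 h and at 4827 and 5471 CPM against 7390 and 7090 CPM at 24 h (log2 0.51, SE 0.0792, adjusted p = 0.137). Cd300lf, an inhibitory receptor with ITIMs, gave 0.51 (adjusted p = 0.145). Pycard, the inflammasome adaptor ASC, gave 0.49 and Akr1b3, an aldose reductase, gave 0.40, each with an adjusted p of 0.145. Lyz2 is also one of the 10 monocyte markers, whose sum was 8142 and 8390 CPM in NFAM1+/+ against 10170 and 9825 CPM in NFAM1-/- at 6 h and 8202 and 9079 CPM against 11399 and 11444 CPM at 24 h. Lyz2 itself made up most of that difference: the other 9 markers summed to 5475 and 5254 CPM against 6058 and 5666 CPM at 6 h and to 3375 and 3608 CPM against 4009 and 4354 CPM at 24 h, without overlap. Within the list 3 markers were higher (Lyz2, Itgam and Ccr2) and 1 lower (Cd14) without overlap at either time. Of all genes tested, 7.14% were higher and 5.60% lower in this way. The part of a difference in monocyte content was not tested. In bulk libraries, fewer cells of a type and less RNA per cell cannot be told apart.

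Of the 20 genes the study plots, 2 passed over both times (Ccl3 and Ccl4), 12 were lower at an unadjusted p below 0.05 and none was higher; 19 of 20 had a log2 difference below 0, with a median of -0.40, where all genes tested had a median of 0.01. The study had measured the proteins of some of them in separate experiments, among them TNF-α, IL-6, IL-12, CCL3, CCL4 and CD86. Others, such as Il1a and Ccl22, it reported from the sequencing of these samples. The list as a whole is therefore not independent evidence of the direction. Without libraries 26 and 58 the median was -0.23 with 8 lower at an unadjusted p below 0.05, and by tag it was -0.24 with 6. Among its cytokines the NFAM1+/+ libraries could lie far apart. Il12b, the p40 subunit of IL-12 and IL-23, stood at 174 CPM in library 26 and at 54.9 CPM in library 10 against 29.4 and 26.4 CPM in NFAM1-/- at 6 h, so library 26 lay far above its partner. At 24 h Il12b stood at 48.8 and 43.3 CPM against 41.4 and 23.3 CPM, and its log2 difference over both times was -1.19 (SE 0.36, adjusted p = 0.227). Il12a, the p35 subunit, stood at 45.6 and 37.6 CPM against 20.9 and 19.8 CPM at 6 h, whereas at 24 h the genotypes overlapped, at 12.7 and 16.3 CPM against 18.2 and 10.7 CPM.

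Tnf stood at 1731 and 1575 CPM in NFAM1+/+ against 1248 and 1223 CPM in NFAM1-/- at 6 h, without overlap. At 24 h it stood at 357 and 452 CPM against 397 and 496 CPM, with overlap, so the log2 difference of -0.14 over both times (SE 0.128, adjusted p = 0.682) covers -0.42 at 6 h and 0.14 at 24 h. Il6, a cytokine of the acute phase, gave -0.53 over both times (adjusted p = 0.232), with 20.7 and 17.2 CPM against 12.4 and 16.03 CPM at 6 h and 49.1 and 52.4 CPM against 43.3 and 24.7 CPM at 24 h. Il1a gave -0.58 (adjusted p = 0.216), Lta, which encodes lymphotoxin α, gave -0.63 (0.193) and Cdk5r1, an activator of the kinase CDK5, gave -0.72 (0.195), each without overlap at either time. The anti-apoptotic genes Bcl2a1a, Bcl2a1b and Bcl2a1d gave -0.14, -0.10 and -0.24, and none of the 3 separated the genotypes at 24 h; these copies are nearly identical, so reads may be split among them. Nr4a1 gave -0.96 (SE 0.157, adjusted p = 0.145), with 46.5 and 42.7 CPM against 25.7 and 23.2 CPM at 6 h. Nfkb1, the p105 subunit, gave -0.13 (adjusted p = 0.441).

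Among the surface molecules of the same list, Cd40, the receptor of the stimulus, stood at 1550 and 1435 CPM in NFAM1+/+ against 1444 and 1403 CPM in NFAM1-/- at 6 h and at 841 and 948 CPM against 919 and 875 CPM at 24 h, with overlap at both times (log2 -0.03, SE 0.063). Cd86, a costimulatory ligand, gave -0.28 (adjusted p = 0.238) and separated the genotypes at 24 h only, at 410 and 387 CPM against 288 and 295 CPM. Cd80, the other CD28 ligand, gave -0.07, and the MHC class I genes H2-D1 and H2-Q7 gave 0.02 and -0.05, where related class I genes may share reads.

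Lists of genes were chosen by pathway to place these values, and beside the 2 chemokines no listed gene passed the test over both times. List counts at an unadjusted p below 0.05 are to be read against the 5.91% of all genes that were lower and the 6.83% that were higher. Among 18 chemokine ligands, 6 were lower and 6 higher at an unadjusted p below 0.05, and the median was -0.16. On the lower side were Ccl3, Ccl4, Ccl22, Cxcl2 (log2 -1.0), a neutrophil attractant, Cxcl3 (-1.50, at no more than 1.45 CPM in any library) and Ccl5 (-0.64). On the higher side were the CXCR3 ligands Cxcl9 (0.35), Cxcl10 (0.22) and Cxcl11 (0.34), the CCR2 ligands Ccl2 (0.50) and Ccl12 (0.51), and Ccl6 (0.54). Cxcl9 stood at 11247 and 13741 CPM in NFAM1+/+ against 15465 and 14450 CPM in NFAM1-/- at 6 h and at 3703 and 4514 CPM against 5205 and 5818 CPM at 24 h, without overlap (adjusted p = 0.221). Ccl2 stood at 62.0 and 75.9 CPM against 86.3 and 86.4 CPM at 6 h and at 21.6 and 27.1 CPM against 32.3 and 45.6 CPM at 24 h, again without overlap (adjusted p = 0.195). Without libraries 26 and 58 the counts were 6 lower and 5 higher, and by tag 1 lower and 1 higher. Members of lists named here beyond the rule for named genes were chosen after their values were seen.

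The NF-κB list of subunits, inhibitors and kinases held 5 genes lower and none higher of 18 at an unadjusted p below 0.05, with 15 below 0 and a median of -0.11. Without libraries 26 and 58, 4 were lower and the median was -0.06, and by tag 4 were lower and the median was -0.04. Rela, the p65 subunit, stood at 470 and 416 CPM against 382 and 365 CPM at 6 h and at 539 and 519 CPM against 459 and 388 CPM at 24 h (log2 -0.28, adjusted p = 0.187). Nfkbiz, the inducible nuclear cofactor IκBζ, gave -0.31 (adjusted p = 0.224) without overlap at either time. Of 19 genes of CD40 signalling, 2 were lower and 1 higher at an unadjusted p below 0.05, with Traf3, an adaptor, at -0.18 and Jak3, a kinase, at 0.20. This share is near that of all genes, and without libraries 26 and 58 it was 0 in each direction. Of 27 cytokines, 8 were lower and 1 higher, which became 4 and 2 without libraries 26 and 58 and 2 and 1 by tag. Il1b stood at 192 and 131 CPM against 98.1 and 72.4 CPM at 6 h and at 170 and 116 CPM against 109 and 38.3 CPM at 24 h (log2 -1.02, adjusted p = 0.208), where library 58 was the lowest. In the BCL2 family 2 of 15 were lower and none higher, with Mcl1 at -0.17 and a median of -0.08. Without libraries 26 and 58, 2 were lower and none higher, with a median of -0.06, and by tag 5 were lower. Without library 26 alone the median was -0.02.

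Immediate early genes, which are transcribed within minutes of a stimulus without new protein, gave 11 of 28 lower and none higher at an unadjusted p below 0.05, 23 below 0 and a median of -0.22. Besides Nr4a1 and Dusp1, the related receptors Nr4a2 and Nr4a3 gave -0.67 and -0.79, both without overlap at either time. Atf3, a stress-induced repressor, was level at 6 h, at 585 and 572 CPM against 578 and 571 CPM, and lower at 24 h, at 233 and 184 CPM against 129 and 105 CPM. Without libraries 26 and 58, 8 were lower and the median was -0.12; by tag, 3 were lower and the median was -0.06. NFAT and calcineurin genes were near level, with 3 of 22 lower and 2 higher and a median of -0.01; without libraries 26 and 58 these were 2 and 0, and by tag 1 and 0. Homer3, a scaffold that can bind NFAT, gave -0.33 (adjusted p = 0.223) and Dyrk1a, a kinase that opposes NFAT, gave -0.15.

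ITAM receptors and their signalling genes stood on both sides of 0, with 8 of 47 lower and 10 higher at an unadjusted p below 0.05 and a median of 0.02. These became 5 and 8 without libraries 26 and 58, and 1 and 3 by tag. Clec4e (log2 -0.60), the glycolipid receptor Mincle, and Syk (-0.19), the kinase of the pathway, were on the lower side. Trem2 (0.62), a DAP12-coupled lipid receptor, and Fcgr4 (0.29), an activating Fc receptor, were on the higher side, as was the inhibitory Fc receptor gene Fcgr2b (0.26). Cd300a, an inhibitory receptor, stood at 49.3 and 45.6 CPM against 40.8 and 38.1 CPM at 6 h and at 88.3 and 67.8 CPM against 49.6 and 46.3 CPM at 24 h (log2 -0.48, adjusted p = 0.18), opposite in direction to its relative Cd300lf.

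Of 54 genes of the response to IFN-γ, 3 were lower and 6 higher at an unadjusted p below 0.05, with a median of 0.02, shares near those of all genes. They became 1 and 3 without libraries 26 and 58, and 2 and 1 by tag. Nos2, inducible nitric oxide synthase, stood at 1465 and 699 CPM against 561 and 602 CPM at 6 h and at 2623 and 1759 CPM against 1094 and 696 CPM at 24 h (log2 -1.05, SE 0.237, adjusted p = 0.18), with library 26 again far above library 10. The list of MHC class II presentation, which also holds costimulatory genes, gave 2 of 17 lower and none higher with a median of -0.03. The 2 were the costimulatory gene Cd86 and the PD-1 ligand gene Pdcd1lg2 (-0.26), and neither encodes an MHC class II molecule. The direction turned without library 26, with 1 lower and 4 higher and a median of 0.11, and without libraries 26 and 58, with 0 lower and 2 higher and a median of 0.06. By tag 2 of the 17 genes of the MHC class II list were lower and none higher, with a median of -0.14. Without library 58 alone the median of that list was -0.05. MHC class I presentation gave none of 22 in either direction, with the chaperone gene Calr at -0.12 and the immunoproteasome gene Psmb9 at 0.10. Among 26 granule proteins 1 was lower and 2 higher, a count that rested on single libraries: it was 7 and 2 without library 12, 0 and 5 without library 58, 0 and 5 without libraries 26 and 58, and 0 and 6 by tag. Chil3, a chitinase-like lectin of monocytes, stood at 666 and 633 CPM against 1298 and 1467 CPM at 6 h and at 34.0 and 29.6 CPM against 42.4 and 130 CPM at 24 h (log2 1.16, SE 0.265, adjusted p = 0.18). At 24 h the value of library 58 made most of that difference.

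Stress genes gave 11 of 27 lower and 1 higher at an unadjusted p below 0.05, a median of -0.15, and the same counts without libraries 26 and 58, whereas by tag the counts were 0 and 1. Hspa1b, an inducible HSP70, stood at 17.3 and 13.4 CPM against 8.24 and 10.7 CPM at 6 h and at 4.90 and 5.13 CPM against 3.09 and 2.97 CPM at 24 h (log2 -0.71, adjusted p = 0.145; reads may be shared with its near-identical neighbour Hspa1a, at -0.85). Srxn1, sulfiredoxin, stood at 148 and 133 CPM against 101 and 102 CPM at 6 h and at 212 and 180 CPM against 114 and 75.9 CPM at 24 h (log2 -0.77, adjusted p = 0.159). Slc7a11, the cystine transporter, gave -1.18, Nqo1 gave -0.77 and Gclc, of glutathione synthesis, gave -0.51.

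Cell cycle genes gave 14 of 35 higher and none lower at an unadjusted p below 0.05, with a median of 0.21. Ccnb2, cyclin B2, stood at 39.7 and 55.3 CPM in NFAM1+/+ against 65.2 and 63.6 CPM in NFAM1-/- at 6 h and at 0.815 and 0.667 CPM against 1.66 and 1.31 CPM at 24 h (log2 0.73, adjusted p = 0.18). Bub1b, of the spindle checkpoint, gave 0.49 (adjusted p = 0.186). Library 26 was the lowest of the 6 h libraries in 29 of the 35 genes, and without libraries 26 and 58 there were 8 higher and none lower, with a median of 0.14. By tag there were 3 higher and 1 lower. Cytosolic ribosomal protein genes had a median of 0.10, and all 30 of 30 were above 0; at 6 h library 26 was the lowest of the 4 in all 30. Rps18 gave 0.23 and Rpl3 gave 0.15, and by tag 26 of the 30 were higher at an unadjusted p below 0.05 in place of 2, as were 13 without libraries 26 and 58 and 22 without library 58. Genes of cholesterol synthesis and uptake were level, with 1 of 24 lower and none higher, Abcg1 at -0.24 and Insig1 at 0.15.

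Surface molecules of monocytes and macrophages gave 4 of 29 lower and 4 higher at an unadjusted p below 0.05, which became 2 and 5 without libraries 26 and 58 and 2 and 1 by tag. Cd14, the co-receptor for LPS, stood at 89.7 and 70.6 CPM against 51.9 and 50.03 CPM at 6 h and at 160 and 115 CPM against 60.9 and 23.5 CPM at 24 h (log2 -1.24, SE 0.308, adjusted p = 0.193), opposite in direction to the sum of the monocyte markers it belongs to. Some markers of other cells also separated the genotypes. Over all genes tested, 5.60% were lower and 7.14% higher in NFAM1-/- without overlap at either time, and with few markers per list these shares matter. Of the 6 listed erythroid genes 3 were lower in NFAM1-/- without overlap at either time (Hba-a1, Hbb-bs and Car2), and the list summed to between 28.6 and 54.0 CPM in NFAM1+/+ against 10.8 to 17.4 CPM in NFAM1-/- at 6 h and 3.87 to 5.24 CPM against 1.93 to 2.14 CPM at 24 h; Klf1, an erythroid transcription factor, was not among the listed genes. Of 10 NK markers only Klrk1 and Klrd1 were listed (Ncr1 and Prf1 were not). Both were higher in NFAM1-/- at each time. Their sum was 395 to 421 CPM in NFAM1+/+ against 439 and 439 CPM in NFAM1-/- at 6 h. At 24 h it was 53.7 to 72.7 CPM against 84.1 to 126 CPM. Of 11 dendritic cell markers, Ccr7 and Cacnb3 were lower without overlap at either time, while the sum of the list overlapped at each time. Of the 13 listed RNA quality genes 2 were lower without overlap at either time (mt-Rnr2 and Neat1). Their sum was 12482 and 12586 CPM in NFAM1+/+ against 13265 and 12965 CPM in NFAM1-/- at 6 h and, the other way, 6753 and 6122 CPM against 5773 and 5576 CPM at 24 h. The part of these cells and of RNA quality in the differences above was not tested.

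**Figure D3:**
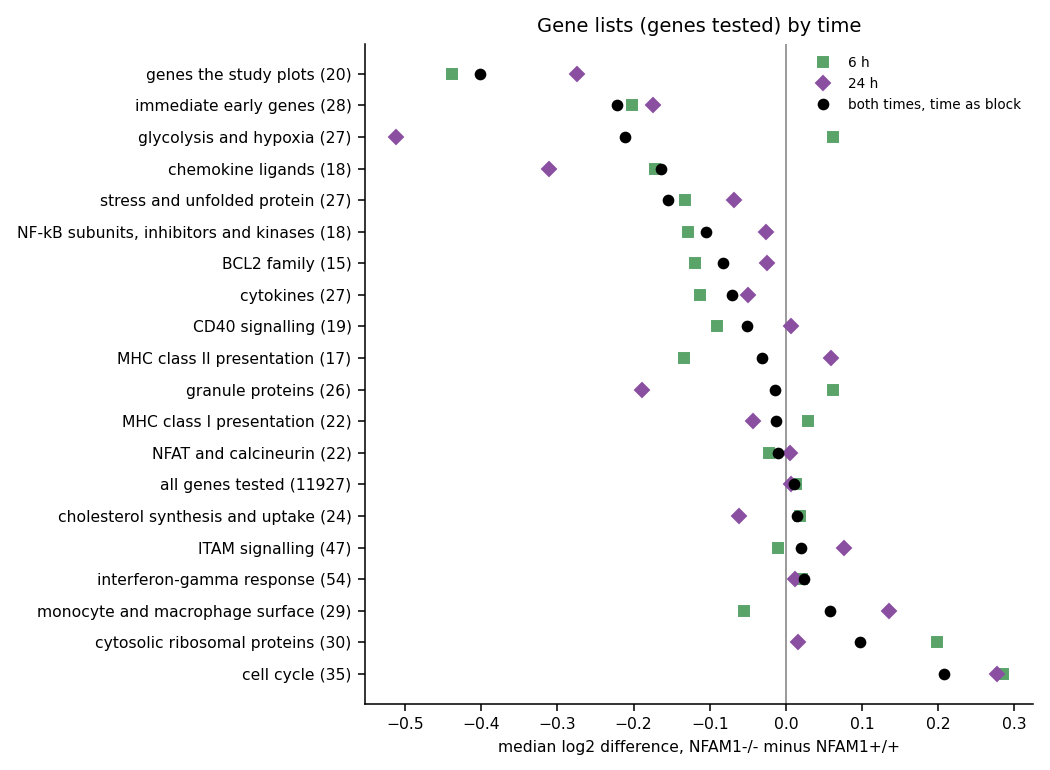
Median log2 difference between NFAM1-/- and NFAM1+/+ monocytes (x axis) of each gene list, with the number of genes tested in brackets (y axis), at 6 h (squares), at 24 h (diamonds) and over both times with time as a block (circles). The glycolysis and hypoxia list is the one whose median at 24 h (-0.51) lies farthest from that at 6 h (0.06), while the genes the study plots lie below 0 at both times.

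At 24 h alone, with 2 libraries against 2, no gene passed (limma, 0% of the genes tested, smallest adjusted p 0.0541), while 766 genes were lower at an unadjusted p below 0.05 (6.42%) and 882 higher (7.39%); without libraries 26 and 58 the larger side turned, with 677 lower and 612 higher. By tag, 290 genes (2.43% of those tested) had an unadjusted p below 0.05 in place of 1648 (13.8%). With the unstimulated libraries in the fit, 265 passed with no minimum fold and 62 at 2-fold, and with voom weights 0 passed.

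Besides Mir155hg, the lower genes named at 24 h were both lipases. Lipa, lysosomal acid lipase, stood at 427 and 357 CPM in NFAM1+/+ against 247 and 236 CPM in NFAM1-/- at 24 h (log2 -0.69, SE 0.0933, adjusted p = 0.0571). Lpl, lipoprotein lipase, stood at 172 and 170 CPM against 102 and 120 CPM at 24 h (log2 -0.63, adjusted p = 0.0571). At 6 h both were nearer to level, at 298 and 288 CPM against 258 and 274 CPM for Lipa and at 1509 and 1447 CPM against 1409 and 1373 CPM for Lpl. On the higher side, Phgdh, the first enzyme of serine synthesis, stood at 8.42 and 10.9 CPM against 19.8 and 19.9 CPM at 24 h (log2 1.05, SE 0.123, adjusted p = 0.0541), and was level at 6 h, at 95.9 and 105 CPM against 94.3 and 99.9 CPM. The apelin receptor gene Aplnr was nearly silent at 24 h, with 6 and 4 reads in NFAM1+/+ against 36 and 68 reads in NFAM1-/- (log2 3.14, adjusted p = 0.0541). AI506816 stood at 9.85 and 10.2 CPM against 16.1 and 17.8 CPM at 24 h (log2 0.76, adjusted p = 0.0571). By tag the 24 h log2 difference had the opposite sign for Mir155hg (0.13), Lipa (0.16), Aplnr (-0.11), Phgdh (-0.19) and AI506816 (-0.10), and was -0.11 for Lpl.

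Glycolysis and hypoxia genes had the list median farthest from 0 at 24 h. Over both times 4 of 27 were lower and 1 higher at an unadjusted p below 0.05, with a median of -0.21. Without libraries 26 and 58 these were 3 and 1 with a median of -0.17, and by tag 2 and 1 with a median of 0.21. At 24 h, 16 of 27 were lower in NFAM1-/- monocytes at an unadjusted p below 0.05 and none was higher, with a median of -0.51. Of all genes tested, 6.42% were lower in this way at 24 h. At 6 h the list median was 0.06. Pgk1, phosphoglycerate kinase, stood at 286 and 181 CPM in libraries 56 and 57 against 137 and 110 CPM in libraries 55 and 58 at 24 h, and at 124 and 132 CPM against 144 and 147 CPM at 6 h. Slc16a3, the lactate exporter MCT4, stood at 304 and 179 CPM against 115 and 100 CPM at 24 h (log2 -1.12, adjusted p = 0.0697). Ndrg1, a hypoxia-responsive gene, was lower at both times, at 48.6 and 39.1 CPM against 34.0 and 34.3 CPM at 6 h and at 85.4 and 58.5 CPM against 36.01 and 31.9 CPM at 24 h (log2 over both times -0.71, adjusted p = 0.18). Hilpda, a lipid droplet gene induced by hypoxia, was under 4 CPM throughout (log2 -0.80, adjusted p = 0.278).

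The libraries at the extremes of this list were the 2 whose labels conflict. In 16 of the 27 genes library 56 was the highest and library 58 the lowest of the 24 h set, which is 59.3% of the list where all genes tested gave 17.6%. Without library 58 the list median at 24 h was -0.44, without library 56 it was -0.29, and with neither it was -0.19. The medians of all genes tested in these fits were 0.008, 0.006 and 0.005. By tag, with library 56 counted as NFAM1-/- and library 58 as NFAM1+/+, the list median at 24 h turned to 0.32. In that fit 0 genes of the list were lower or higher at an unadjusted p below 0.05. Of all 11927 genes tested, 174 were lower and 116 higher by tag.

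**Figure D4:**
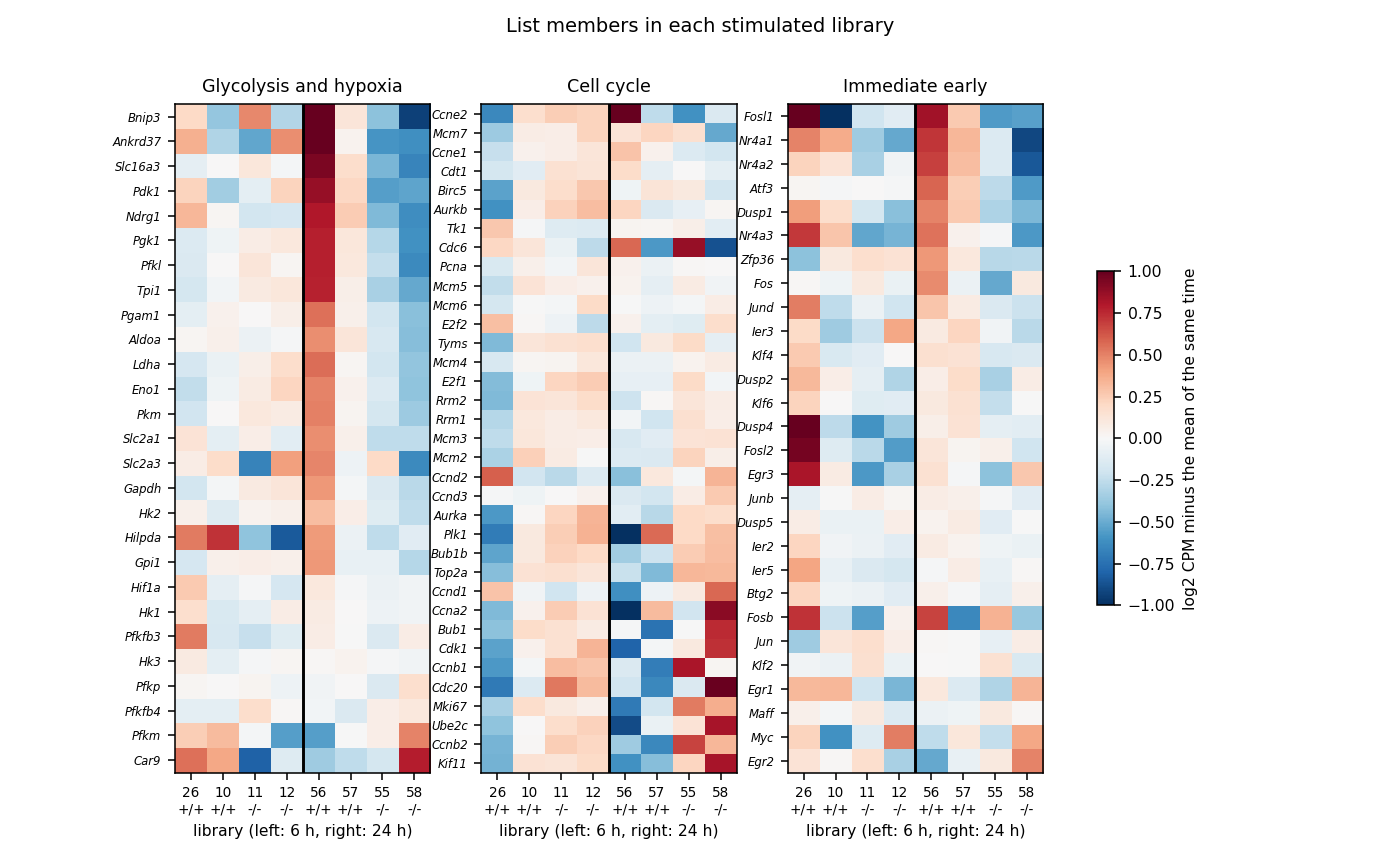
Level of each tested member of 3 lists (rows) in each of the 8 libraries (columns, 6 h to the left and 24 h to the right of the black line), as log2 CPM minus the mean of the 4 libraries of the same time. Library 56 stands out as the highest for most glycolysis and hypoxia genes at 24 h, and library 26 as the lowest for most cell cycle genes at 6 h.

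At 6 h alone no gene passed (limma, 0%, smallest adjusted p 0.306), with 726 genes lower and 693 higher at an unadjusted p below 0.05. The count depended on which libraries were kept, and leaving out 1 library leaves 1 of its genotype at 6 h. Library 26 differed by 2-fold or more from libraries 11 and 12 in 605 and 556 genes. Library 10 did so in 371 and 372 genes, and libraries 11 and 12 differed from each other in 375. The part of single libraries in the count was not tested. In a fit of the 4 libraries of 6 h alone 2 genes passed, Chil3 and the unnamed transcript Gm26880, both higher, and 0 passed with voom weights. The difference between the times was tested as an interaction, and no gene passed (limma, 0%, smallest adjusted p 0.34), with 1311 genes at an unadjusted p below 0.05. With voom weights 0 passed and 1298 had an unadjusted p below 0.05, and without library 10, 101 passed. The genotypes separated in opposite directions at the 2 times in 1010 genes (8.47%).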

How the data were processed

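RNA from cultured monocytes was sequenced as polyA-selected, non-stranded paired reads. Per the submitters' processing notes, reads were checked with FastQC, aligned with STAR to GRCm39 (mm39) and passed to edgeR and limma. The deposited values are log2 CPM values (read counts relative to library size) that the authors scaled between libraries after adding 0.5 to each count. In the low values, 100% came out as whole reads within a tolerance of 0.02, and CPM was computed back from the log2 values. Depth was 64285583 to 78714274 reads on listed genes per library.

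Of 13085 listed genes, 11927 reached 1 CPM in at least 2 of the 8 libraries and were tested with limma 3.58.1 in R 4.3.3 (empirical Bayes with a trend, Benjamini-Hochberg adjustment over all of them). Genotype was tested over both times with time as a block (5 residual degrees of freedom) and, in a fit of 4 groups, at each time and between times (4 residual degrees of freedom). Groups came from the titles, and the tag was an alternative. The fits were also run on simulated data. These had independent noise for each gene and held no library-wide shifts or label conflicts, so they do not test the fits under those conditions. Alternatives were other filters, scalings, pseudocounts, variance models and sets of libraries.

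The genes named are Nfam1, the 20 genes the study plots, the genes with the largest differences among those that passed without overlap (filled up, where few passed, by smallest p), and the 2 members of each list with the smallest p; predicted genes were not named by this rule, and 1 gene that it names is not reported here. The members and lists were chosen with earlier results of these data known. Sequences are from RefSeq tables of GRCm38.p6, in which 49 of the 64 named genes have a promoter; no coordinates were converted.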

Additional observations from a re-analysis of the deposited data

Results flagged for a closer look

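For 5 of the named genes the genotypes separated in opposite directions at 6 h and 24 h, so that every NFAM1-/- library lay on one side at one time and on the other side at the other. The test of the difference between times (limma, interaction) did not pass for any of them, and 8.47% of all genes tested separated in this way. Gfi1, a repressor of myeloid differentiation genes, stood at 5.02 and 5.21 CPM in NFAM1+/+ against 3.42 and 3.13 CPM in NFAM1-/- at 6 h and at 27.8 and 35.3 CPM against 53.5 and 53.5 CPM at 24 h, a difference between times of 1.42 (SE 0.199, adjusted p = 0.34). Zfp871, a zinc finger gene, gave -0.91 at 6 h and 0.48 at 24 h, a difference between times of 1.39 (adjusted p = 0.34).

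In the other direction, Rhoh, which encodes a haematopoietic GTPase without catalytic activity, stood at 231 and 268 CPM against 304 and 307 CPM at 6 h and at 114 and 103 CPM against 73.2 and 76.6 CPM at 24 h, a difference between times of -0.84 (SE 0.128, adjusted p = 0.34). Apoe, apolipoprotein E, gave 0.64 at 6 h and -0.27 at 24 h, a difference of -0.91 (adjusted p = 0.34). H2-D1, an MHC class I gene, gave 0.16 at 6 h and -0.12 at 24 h, a difference of -0.28 (adjusted p = 0.528).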

How the results depend on the processing

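No paired analysis was possible because the sources used here do not say which mouse each library came from. Calls at 2-fold and an adjusted p below 0.05 over both times went from 0 to 1 with log2(CPM + 1), to 19 with all 16 libraries in the fit and to 0 to 5 on leaving out 1 library. With no minimum fold the 3 calls became 5 with log2(CPM + 1), 249 with all 16 libraries, 1 without libraries 26 and 58, 0 to 32 on leaving out 1 library, and 0 with no trend in the variance, with the tag, with only the libraries whose title and tag agree, or with no time term. At 24 h the 0 calls at 2-fold became 3 with quantile normalization, 62 with all 16 libraries, 1 without libraries 26 and 58 and 0 to 105 on leaving out 1 library; with no minimum fold these were 12, 265, 2 and 0 to 196. Leaving out library 55 gave 196, library 57 gave 90, library 26 gave 82 and library 10 gave 71. At 6 h, with or without the minimum fold, the 0 calls became 2 with log2(CPM + 1), 2 with the libraries that agree, 2 with the 6 h libraries alone and 3 without libraries 26 and 58; on leaving out 1 library they were 0 to 96 at 2-fold and 0 to 631 without. For the difference between times, 1 gene passed with the libraries that agree and 1 without libraries 26 and 58, and 0 to 49 at 2-fold or 0 to 101 without on leaving out 1 library. The highest counts at 6 h, over both times and between times came without library 10. Fits that leave a group with 1 library assume that it varies like the others, and the cause of these shifts was not tested. Scaling to each library's own total moved the unadjusted split at 24 h from 766 lower and 882 higher to 586 and 1077, and over both times from 705 and 815 to 585 and 937.

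Over both times, log2 differences of the other sign were as follows. Quantile normalization gave Cd40 0.016, H2-D1 -0.074 and H2-Q7 0.020, and median-centring gave H2-D1 -0.0028. Without libraries 26 and 58, Cd40 gave 0.015 and Cd80 0.078. On leaving out 1 library, the values ran from -0.157 to 0.111 for Cd80, from -0.0150 to 0.0790 for H2-D1, from -0.151 to 0.0297 for H2-Q7 and from -0.145 to 0.233 for Gfi1. With the tag, Lipa gave 0.012, Phgdh -0.12, Rhoh 0.17, Ighv3-6 0.98, Gfi1 -0.41, Jak3 -0.0045, Il1b 0.060, Calr 0.0099, Ndrg1 0.0051, Insig1 -0.029, Cd14 0.14 and H2-Q7 0.10. With the tag at 24 h, Mir155hg gave 0.13, Lipa 0.16, Aplnr -0.11, Phgdh -0.19 and AI506816 -0.10, and between times Phgdh gave -0.14. With the libraries whose title and tag agree, H2-Q7 gave 0.039, Rhoh 0.032 and Gfi1 -0.23. Ighv3-6 gave 0.48 with log2(CPM + 1) and 1.42 with voom weights. Apart from leaving out 1 library, 1233 values of named genes and list medians counted as unchanged. For a gene this means the same direction and side of the threshold. For a list median it means a move smaller than the spread between replicates, whatever its sign. The median of MHC class I presentation, for example, was -0.012 by title and 0.034 by tag. Of the gene values 29 changed sign, 17 no longer passed and 34 newly passed, and 7 list medians moved by more than the spread.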

Other observations

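A few enzymes of serine and folate metabolism were looked at because of the value of Phgdh at 24 h; they were picked after their values were seen, are no complete list, and none passed (limma). At 24 h, 25.3% of all genes tested were higher in NFAM1-/- without overlap. Psat1, the transaminase after PHGDH, stood at 8.93 and 8.74 CPM in NFAM1+/+ against 12.8 and 15.8 CPM in NFAM1-/- (log2 0.69, adjusted p = 0.0697). Aldh1l1, a cytosolic folate dehydrogenase, stood at 2.36 and 2.35 CPM against 5.08 and 6.59 CPM (log2 1.30, adjusted p = 0.0697). Shmt2, the mitochondrial serine hydroxymethyltransferase, stood at 26.5 and 24.9 CPM against 32.9 and 36.6 CPM (log2 0.43, adjusted p = 0.167). Mthfd1l, a mitochondrial enzyme of the same pathway, stood the other way, at 15.8 and 10.1 CPM against 8.27 and 7.94 CPM.

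The globin transcripts Hba-a1 and Hbb-bs, present at low levels, were lower in NFAM1-/- libraries at both times without overlap. The other listed globin genes did not separate the genotypes at both times. Hbb-bs stood at 21.9 and 10.3 CPM in NFAM1+/+ against 4.36 and 5.41 CPM in NFAM1-/- at 6 h and at 1.82 and 1.06 CPM against 0.429 and 0.597 CPM at 24 h (log2 -1.54, adjusted p = 0.145). The immunoglobulin segment Ighv3-6 had 27 and 169 reads in NFAM1+/+ against 142 and 719 reads in NFAM1-/- at 6 h, and 25 and 38 reads against 0 and 0 at 24 h.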
